A study of Mus musculus with 24 samples.

Results

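The genes described here encode nuclear subunits of the mitochondrial respiratory chain and of ATP synthase, measured in mouse bone marrow cells during 4 days of osteoclast formation. They were chosen by symbol alone: names that begin with Ndufa, Ndufb, Ndufc, Ndufs or Ndufv and a number (complex I), the 4 genes Sdha to Sdhd (complex II), names that begin with Uqcr (complex III), with Cox4 to Cox8 (complex IV) or with Atp5 (complex V, ATP synthase). This rule found 78 of the 10721 genes in the deposited table, of which 34 belonged to complex I, 4 to complex II, 8 to complex III, 16 to complex IV and 16 to complex V. All 78 were among the 10081 genes tested, which were those whose mean reached 1 FPKM in some group (FPKM counts fragments per kilobase of transcript, scaled to library size). The symbols are older ones, and 3 of them name genes that are not subunits in the strict sense. Cox4nb is an older name of Emc8, a member of a complex of the endoplasmic reticulum membrane, and Atp5s and Atp5sl are relatives that are not part of the ATP synthase core. Ndufa4 is counted with complex I by its name and is now regarded as a subunit of complex IV. Of 13 subunits encoded in mitochondrial DNA, 0 were found by symbol in the deposited table, so these were not analysed here.

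Complex I (NADH dehydrogenase) and complex II (succinate dehydrogenase, also an enzyme of the tricarboxylic acid cycle) pass electrons to ubiquinone, complex III (the cytochrome bc1 complex) passes them to cytochrome c, and complex IV (cytochrome c oxidase) passes them to oxygen. Complexes I, III and IV pump protons across the inner mitochondrial membrane, and complex V uses their return to make ATP. Osteoclasts, the multinucleated cells that resorb bone, are rich in mitochondria, and their formation under the cytokine RANKL is known to go with mitochondrial biogenesis driven in part by the coactivator PGC-1 beta, the product of Ppargc1b.

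The 24 libraries came from 3 wild-type (WT) and 3 STING-deficient (KO) mice, each sampled on 4 days, so that each of the 8 groups held 3 samples. STING is the adaptor of the cytosolic DNA sensing pathway, and the labels do not describe the mutant allele. Marrow of female mice aged 10 to 12 weeks, freed of red cells, was first grown for 72 h with 40 ng/mL mCSF, the macrophage growth factor. Those expanded cells were the day 0 precursors, and the rest were plated at 25000 cells per well with 10 ng/mL RANKL and 20 ng/mL mCSF for 2, 3 or 4 days, with 3 wells pooled per sample. The WT groups (mice 480, 529 and 531) and the KO groups (mice 481, 528 and 532) had the same treatment. There was no culture without RANKL on days 2 to 4, so RANKL, replating, the lower mCSF dose and time in culture cannot be told apart.

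Read depth was not given in the files. The summed FPKM of the table was 573661 to 734974 on day 0 and 459180 to 537906 on the RANKL days, with no overlap. The gene of STING, listed as Tmem173, was at 28.7, 25.4 and 21.3 FPKM in day 0 cells of WT mice. Day 0 cells of KO mice had 5.08, 4.57 and 4.89 FPKM. The KO samples were also below the WT samples on each later day, with a difference that passed on day 2 (limma, adjusted p = 0.0232) but not on day 3 or 4 (limma, adjusted p = 0.934 and 0.224). Cell type markers moved strongly between day 0 and the later days. The summed level of 12 neutrophil markers ranged from 5967 to 16166 FPKM on day 0 and from 74.4 to 224.7 FPKM afterwards, and none of the 12 was at 0 throughout a group. The sum of 9 B cell markers went from 96.2 to 209 FPKM on day 0 to 30.1 to 49.7 FPKM afterwards, and that of 11 macrophage markers from 13306 to 25025 FPKM to 4201 to 11361 FPKM. By limma's test at an adjusted p under 0.05, 2 of these 11 were higher and 7 lower on WT day 4 (all genes 39.2% and 42.7%). In KO 2 were higher and 8 lower (all genes 38.6% and 40.8%). Between days 3 and 4, 10 were higher in WT and 11 in KO (all genes 19% and 18.2%), and 0 were lower. The sum of 13 osteoclast markers ranged from 318 to 595 FPKM on day 0 and from 42916 to 51690 FPKM on day 4, and the sum of 15 proliferation markers from 881 to 1426 FPKM on day 0 and from 273 to 359 FPKM on day 4. The sum of 3 erythroid markers was 9.31 to 30.2 FPKM on day 0 and at most 0.469 FPKM later, that of 3 stromal markers stayed between 0.285 and 3.77 FPKM, and 1 T cell marker, Cd4, was at 1.24 to 5.55 FPKM on day 0. In such bulk samples fewer cells of a type and less RNA per cell cannot be told apart. The part of the changing cell mixture in the differences from day 0 given below was not tested.

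Measured as a share of all FPKM in the table, transcripts of the 78 genes took a larger part after RANKL. On day 0 they held 3.63%, 3.85% and 4.46% of the summed FPKM in the 3 WT mice. The 3 KO mice had 3.88%, 4.15% and 3.39%. The range was 5.18% to 5.95% on day 2, 6.28% to 7.29% on day 3 and 6.02% to 6.61% on day 4, over both genotypes. Every RANKL sample was above every day 0 sample, and every day 3 and day 4 sample was above every day 2 sample. A share of this kind depends on the whole table, whose sum was lower on the RANKL days.

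Gene by gene, the subunits of one complex did not move as one. The differences below are on the log2(FPKM + 1) scale, from a linear model over all 24 samples fitted with limma, and a gene is called higher or lower where its p-value adjusted over the 10081 genes was under 0.05. In WT cells 18 of the 78 genes were higher and 15 lower on day 2 than on day 0, against 38.5% and 37.5% of all genes tested. On day 3 there were 29 higher and 14 lower (all genes 40.4% and 41.6%), and on day 4 there were 30 higher and 15 lower (all genes 39.2% and 42.7%). The share of the 78 called higher on day 4 was thus near the background, and the share called lower was below it. The median log2 difference of the 78 was -0.00 on day 2, 0.19 on day 3 and 0.22 on day 4, against 0.00, -0.04 and -0.07 for all genes tested.

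KO cells had more calls upward. On day 2 there were 27 higher and 8 lower (all genes 37.1% and 36.5%), on day 3 there were 48 higher and 4 lower (all genes 38.9% and 39.5%), and on day 4 there were 49 higher and 4 lower (all genes 38.6% and 40.8%). Their medians were 0.22, 0.58 and 0.52. No gene was called in opposite directions in the genotypes on any day. On day 4, 30 genes were higher in both, 4 were lower in both, 19 were higher in KO only and 11 lower in WT only. The days of one genotype share its day 0 samples, and a call in one genotype and not in the other does not show that they differ, which is tested below.

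The balance of higher and lower calls depended on how samples were scaled. With each sample scaled to the same summed FPKM, the median of all genes tested moved from -0.07 to 0.29 for WT day 4 against day 0, and 56 of the 78 genes were higher and 3 lower, against 48.7% and 27.6% of all genes under that scaling. All 30 genes called higher on the deposited scale were also higher there. Of the 15 called lower, 3 remained lower, which were Ndufs8, Cox4i2 and Cox6a2, and 1 of the other 12 had a difference above 0. For WT day 2 this scaling gave 47 higher and 5 lower (all genes 54% and 21.1%), and for WT day 3 it gave 56 and 5 (all genes 51.6% and 25.1%). In KO it gave 55 and 3 on day 2 (all genes 50.3% and 22.9%) and 57 and 4 on day 4 (all genes 44.3% and 31.8%). Measured against the median of all genes, the members' median was 0.29 above it on the deposited scale and 0.35 above it with sum scaling for WT day 4, and 0.58 and 0.60 above it for KO day 4. Lower calls in the paragraphs that follow are on the deposited scale unless stated. Shares over all genes tested, given above for each day, are the background for the counts by complex below. With the mouse as a block, 23 genes were lower in WT on day 2, and 9 in KO on day 4, and every call of the unblocked fit against day 0 was kept.

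**Figure D1:**
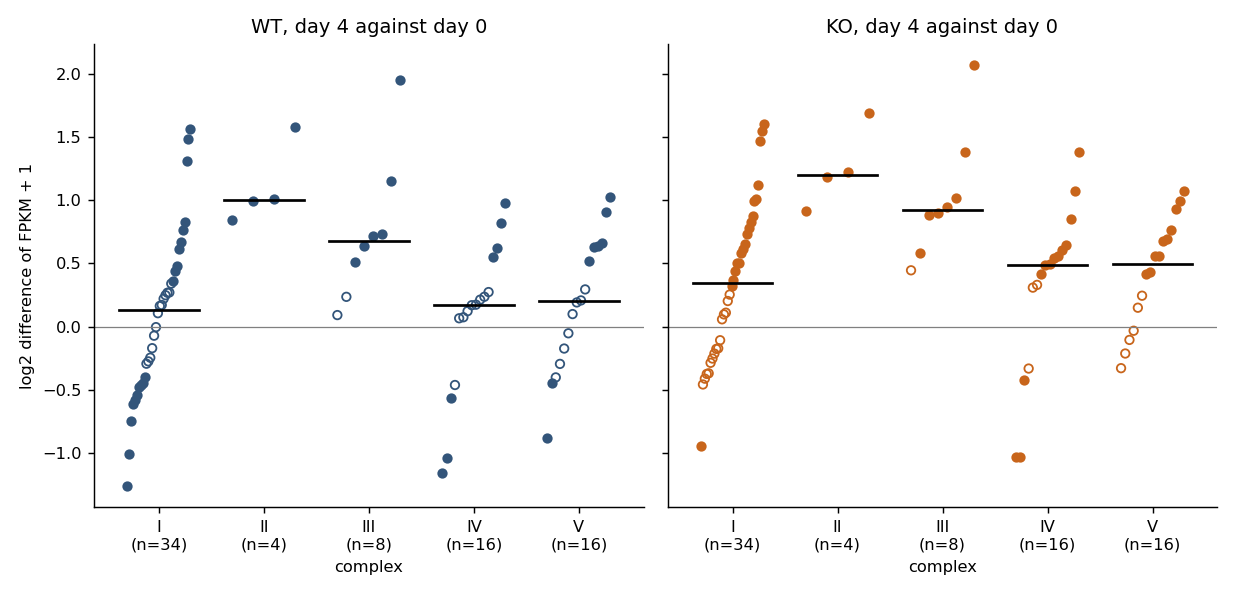
Log2 difference of FPKM + 1 between day 4 and day 0 for each of the 78 genes, by complex, in WT (left) and KO (right); filled points passed limma's test at an adjusted p under 0.05, open points did not, and bars mark medians. All 4 complex II genes lie above 0 in both genotypes, while complex I spans from -1.26 to 1.56 in WT.

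Complex II rose as a whole. All 4 genes were higher than on day 0 in both genotypes on days 2, 3 and 4, with a median log2 difference of 1.0 in WT and 1.20 in KO on day 4. Sdha, the flavoprotein that oxidises succinate (chr13:74322255-74350240, mm10), had 150, 134 and 138 FPKM in WT on day 0, 239, 212 and 230 FPKM on day 2, 351, 341 and 339 FPKM on day 3 and 449, 418 and 404 FPKM on day 4. The groups followed each other without overlap from day to day. The log2 difference of WT day 4 from day 0 was 1.58 with a standard error (SE) of 0.0903 (limma, adjusted p = 3.21e-12), and it was 1.69 in KO (limma, adjusted p = 1.08e-12). Sdhb, the iron-sulfur subunit, went from 258 ± 33.1 to 521 ± 67.9 FPKM (mean ± SD, n = 3) in WT between day 0 and day 4. The membrane anchors Sdhc and Sdhd went from 221 ± 8.08 to 398 ± 17.4 FPKM and from 131 ± 11.8 to 262 ± 8.08 FPKM. The ratio of Sdha to Sdhc, which no scaling of a sample can change, was 0.638 ± 0.0575 in WT on day 0 and 1.07 ± 0.0761 on day 4, so these 2 genes did not change in equal measure.

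In complex III 6 of 8 genes were higher on WT day 4 and 7 of 8 in KO, and none was lower in either. Uqcrc2, a core protein of the complex (chr7:120635189-120659523), rose more than any other of the 78 genes. It had 84.3, 91.7 and 86.2 FPKM in WT on day 0, 240, 225 and 237 FPKM on day 2, 346, 333 and 320 FPKM on day 3 and 368, 318 and 341 FPKM on day 4. Every RANKL sample was above every day 0 sample, and the day 3 and day 4 samples overlapped. The difference on day 4 was 1.96 (SE 0.0858; limma, adjusted p = 5.15e-14) in WT and 2.07 (limma, adjusted p = 2.14e-14) in KO. Uqcrfs1, the Rieske iron-sulfur protein, went from 145 ± 11.4 to 325 ± 35.9 FPKM, and Uqcrc1, the other core protein, from 235 ± 21.1 to 391 ± 44.5 FPKM, in WT.

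Uqcr10, a small subunit with the highest mean FPKM of the complex over all 24 samples, went from 599 ± 92.4 to 984 ± 100 FPKM in WT, with a difference of 0.72 (limma, adjusted p = 0.00156), close to that of Uqcrc1 at 0.73. The 2 smallest differences of the complex were those of Uqcrq and Uqcrh. Uqcrq, which had the highest level of the complex in both day 0 groups, had 589, 670 and 906 FPKM in WT on day 0 and 823, 642 and 818 FPKM on day 4. These ranges overlapped, and the difference of 0.09 did not pass (limma, adjusted p = 0.681). Uqcrh, the hinge protein, had 555 ± 121 and 646 ± 81.9 FPKM (limma, adjusted p = 0.210), and passed in KO with a difference of 0.58 (limma, adjusted p = 0.00436). With sum scaling, all 8 genes were higher on day 4 in both genotypes. The ratio of Uqcrc2 to Uqcrq was 0.125 ± 0.0262 in WT on day 0, 0.409 ± 0.0469 on day 2 and 0.453 ± 0.0400 on day 4. Levels within the complex thus came closer to each other: the highest over the lowest of its 8 genes was a ratio of 7.30 to 10.5 in WT on day 0 and of 2.96 to 3.12 in WT on day 4. The KO samples gave 5.69 to 8.92 and 2.77 to 3.21. This was not general. In WT the same ratio was 23.4 to 25.8 on day 0 and 51.9 to 59.2 on day 4 in complex I. By group mean, the highest gene there was Ndufa3 on day 0 and Ndufa4, now regarded as a complex IV subunit, on day 4. The SD of log2 levels over the 34 complex I genes was 1.01 to 1.11 on WT day 0 and 1.02 to 1.03 on WT day 4. As a set, these levels thus did not spread apart. In complex II the ratio was 1.73 to 2.42 and 1.74 to 2.13, and in complex V it was 197 to 227 and 311 to 346. The lowest gene of complex V was Atp5s, which is not part of the ATP synthase core. Its ratio thus does not compare core subunits alone.

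Calls in complex I went both ways in WT, as they did over all genes tested. On WT day 4, 10 of its 34 genes were higher and 10 lower, with a median of 0.13 (all genes 39.2% and 42.7%). In KO 18 were higher and 1 lower, with a median of 0.35 (all genes 38.6% and 40.8%). With sum scaling the WT counts were 20 higher and 1 lower (all genes 48.7% and 27.6%). The KO count of lower genes was 6 with the mouse as a block, 4 with equal weights, and 3 with median scaling, without mouse 531 or without mouse 532, and 12 were higher without mouse 532. Ndufa10, an accessory subunit (chr1:92439486-92473825), had 100, 107 and 84.3 FPKM in WT on day 0 and 296, 272 and 295 FPKM on day 4. Ndufs1, the largest core subunit, which carries iron-sulfur clusters (chr1:63143592-63176822), had 38.3, 48.2 and 52.6 FPKM on day 0 and 141, 124 and 126 FPKM on day 4. Both sets were far apart, with log2 differences of 1.56 (SE 0.104) and 1.48 (SE 0.110) (limma, adjusted p = 3.40e-11 and 1.92e-10). Ndufv1, the core subunit that binds FMN and NADH, went from 64.7 ± 1.04 to 163 ± 15.2 FPKM.

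Ndufs8, another iron-sulfur core subunit (chr19:3908863-3912774), went the other way. It had 206, 175 and 224 FPKM in WT on day 0, 116, 113 and 132 FPKM on day 2, 102, 105 and 100 FPKM on day 3 and 85.3, 74.2 and 89.8 FPKM on day 4. The WT day 4 samples lay below those of every other WT day, with a difference from day 0 of -1.26 (SE 0.132; limma, adjusted p = 3.05e-08). The KO difference was -0.95 (limma, adjusted p = 1.73e-06), and sum scaling left a WT difference of -0.84 (limma, adjusted p = 2.49e-08). The ratio of Ndufs1 to Ndufs8 in WT was 0.232 ± 0.0451 on day 0 and 1.58 ± 0.147 on day 4, so the transcripts of 2 core subunits of one complex changed their order. Ndufa2, an accessory subunit, had 525 ± 112 FPKM on day 0 and 257 ± 29.0 FPKM on day 4 in WT, with a difference of -1.01 (limma, adjusted p = 0.00617). It did not pass in KO (-0.46; limma, adjusted p = 0.186), nor in WT with sum scaling (-0.59; limma, adjusted p = 0.0554). Of the 6 core subunits found, 4 were higher and 1 lower on WT day 4. Of the 28 accessory ones, 6 were higher and 9 lower. This division into roles was made after the values had been seen. Ndufa4, which had the highest mean FPKM of the 34 genes from day 2 on, had 784 ± 82.2 FPKM on day 0 and 1251 ± 119 FPKM on day 4 in WT.

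Of the 16 complex IV genes, 4 were higher and 3 lower on WT day 4 (median 0.17), and with sum scaling 12 were higher and 2 lower (median 0.60). The 3 lower in WT were Cox4i2 and Cox6a2, forms with low levels, and Cox4nb, which is no oxidase subunit. In KO 10 were higher and 3 lower (median 0.49), and without mouse 532 the higher count was 5. Cox4i1, the common form of subunit 4, had 1516, 1220 and 1649 FPKM in WT on day 0, 1031, 872 and 1237 FPKM on day 2 and 1614, 1362 and 1592 FPKM on day 4. The day 0 and day 4 values overlapped, with a difference of 0.07 (limma, adjusted p = 0.757), and in KO the difference was 0.49 (limma, adjusted p = 0.0255). Cox6b1 and Cox6a1 did not pass in WT either, with differences of 0.07 and 0.27 (limma, adjusted p = 0.651 and 0.111). With sum scaling all 3 were higher in WT, with differences of 0.49, 0.50 and 0.70 (limma, adjusted p = 0.00384, 9.01e-05 and 3.11e-05). Cox7b and Cox8a rose on the deposited scale, from 228 ± 9.53 to 403 ± 36.0 FPKM and from 707 ± 57.7 to 1040 ± 136 FPKM.

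Paired forms of complex IV subunits behaved differently from each other. Cox7a1, the form of subunit 7a best known from heart and skeletal muscle (chr7:30184171-30186030), had 36.2, 34.3 and 49.3 FPKM in WT on day 0, 30.5, 29.8 and 30.9 FPKM on day 2, 68.1, 67.9 and 69.5 FPKM on day 3 and 87.0, 62.9 and 89.2 FPKM on day 4. The day 3 and day 4 values were above all those of days 0 and 2. The difference of WT day 4 from day 0 was 0.98 (SE 0.215; limma, adjusted p = 0.000321), and that between days 3 and 2 was 1.15. Cox7a2, the widely expressed form, had 381 ± 72.8 FPKM on day 0 and 427 ± 51.8 FPKM on day 4 and did not pass in WT (limma, adjusted p = 0.394). The ratio of Cox7a1 to Cox7a2 was 0.105 ± 0.00253 on WT day 0, 0.0763 ± 0.0124 on day 2, 0.162 ± 0.0102 on day 3 and 0.186 ± 0.0135 on day 4. Cox7a2l, a related protein that helps to join complexes III and IV into supercomplexes, had 199 ± 40.5 FPKM on day 0 and 302 ± 21.2 FPKM on day 4 (0.62; limma, adjusted p = 0.000197).

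Both Cox6a2 and Cox4i2, forms with low levels, were lower on day 4. Cox6a2, the other muscle-type form, had 3.04, 6.77 and 6.33 FPKM in WT on day 0 and 2.33, 1.63 and 1.37 FPKM on day 4 (-1.16; limma, adjusted p = 0.00152), against levels above 900 FPKM for Cox6a1 in each WT sample on those days. Cox4i2, the lung-type form of subunit 4, had 0.283, 1.53 and 2.41 FPKM on day 0 in WT, and in the 18 RANKL samples of both genotypes it was listed at 0 or at no more than 0.167 FPKM. At such levels a log2(FPKM + 1) difference understates the change. Cox6b2, a form of subunit 6b best known from testis, had 3.65 ± 0.343 FPKM on WT day 0 and 2.37 ± 0.227 FPKM on day 4, a difference that did not pass (-0.46; limma, adjusted p = 0.246). Cox4nb, which is no oxidase subunit, had 14.2 ± 1.18 FPKM on WT day 0 and 9.25 ± 0.314 FPKM on day 4.

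**Figure D2:**
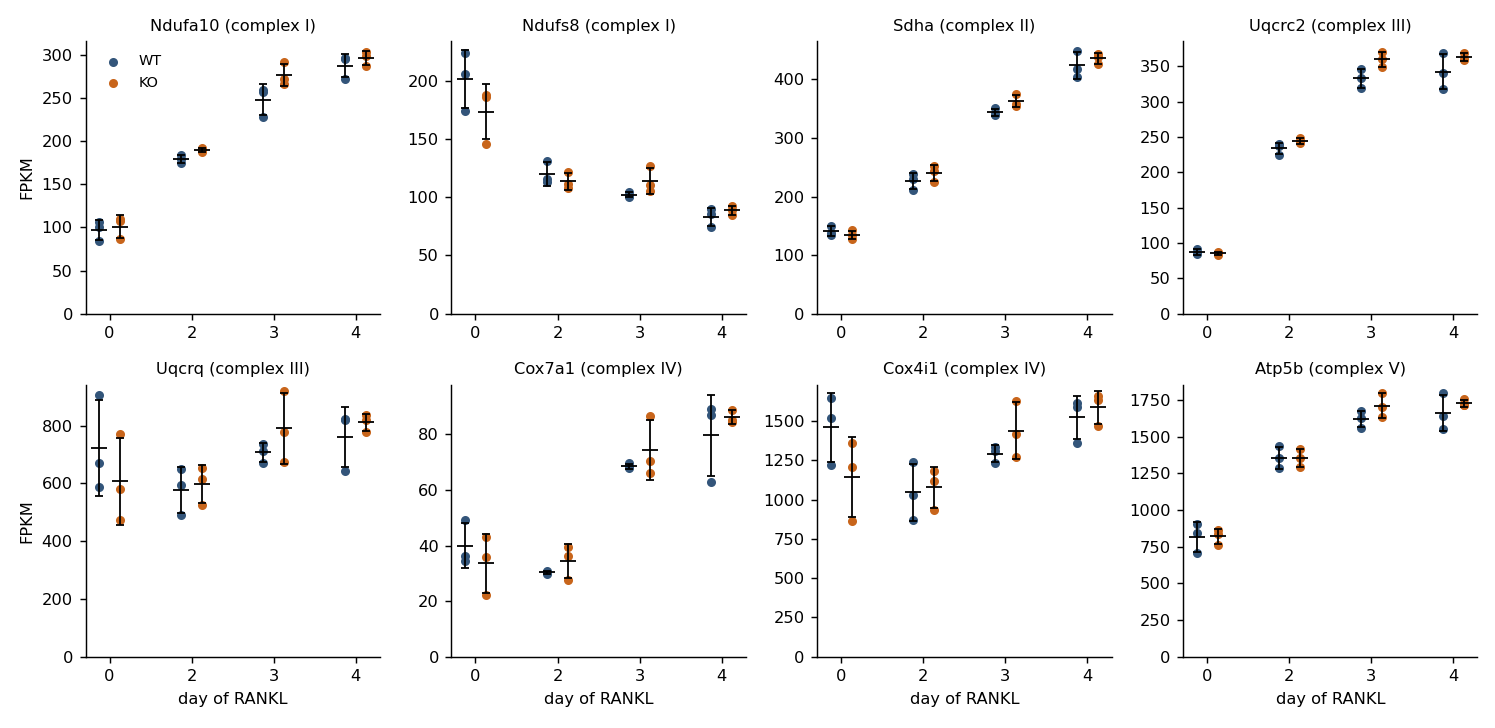
FPKM of 8 of the genes by day of RANKL; points are single samples (blue WT, orange KO), long bars the mean and error bars the SD of 3 samples. Sdha, Uqcrc2, Ndufa10 and Atp5b rise from day to day up to day 3, Ndufs8 falls, and the day 0 and day 4 values of Uqcrq and Cox4i1 overlap in WT.

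Of the 16 complex V genes, 6 were higher and 2 lower on WT day 4, and 10 were higher and 0 lower in KO. With sum scaling the WT counts were 12 and 0. The grouping by role that follows was made after the values had been seen. Atp5a1 and Atp5b, the alpha and beta subunits of the catalytic F1 head, and Atp5c1, its gamma shaft, all rose. Atp5b (chr10:128083307-128090388), which holds the catalytic sites, had 706, 842 and 901 FPKM in WT on day 0, 1351, 1283 and 1432 FPKM on day 2, 1672, 1626 and 1560 FPKM on day 3 and 1796, 1554 and 1637 FPKM on day 4. Every RANKL sample was above every day 0 sample. The day 4 difference was 1.03 (SE 0.114; limma, adjusted p = 6.90e-08) in WT and 1.07 (limma, adjusted p = 3.79e-08) in KO. Atp5a1 went from 504 ± 19.7 to 946 ± 71.0 FPKM and Atp5c1 from 337 ± 6.57 to 526 ± 39.4 FPKM in WT.

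Atp5e, the small epsilon subunit of the same head, had 977, 722 and 1087 FPKM in WT on day 0 and 522, 439 and 533 FPKM on day 4. The groups did not overlap, yet the difference of -0.88 only just passed (SE 0.404; limma, adjusted p = 0.0498). It was lost with sum scaling (-0.46; limma, adjusted p = 0.260) and when any 1 WT mouse was left out (limma, adjusted p = 0.121 without mouse 480, 0.0702 without mouse 529 and 0.180 without mouse 531). In KO it had 838, 859 and 370 FPKM on day 0 and 597, 579 and 388 FPKM on day 4, which overlapped. Atp5e was low in mouse 532 on all 4 days, with 370, 308, 366 and 388 FPKM. The ratio of Atp5b to Atp5e was 0.906 ± 0.232 in WT on day 0 and 3.35 ± 0.246 on day 4.

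The 3 genes of the c ring, Atp5g1, Atp5g2 and Atp5g3, encode the same mature protein with different import sequences. Atp5g3 had the highest level, with 687 ± 131 FPKM on WT day 0 and 1079 ± 143 FPKM on day 4 (0.66; limma, adjusted p = 0.00744), a call that was lost without mouse 480 (0.51; limma, adjusted p = 0.0779). Atp5g1 had 104, 124 and 147 FPKM on day 0, 269, 227 and 225 FPKM on day 3 and 221, 163 and 194 FPKM on day 4. Its mean was highest on day 3, and it was lower on day 4 than on day 3 in WT (-0.32) and in KO (-0.37). Atp5g2 had 227 ± 28.6 FPKM on day 0 and 167 ± 26.8 FPKM on day 4 in WT (-0.44; limma, adjusted p = 0.00801), a difference that was -0.02 with sum scaling. The ratio of Atp5g3 to Atp5g2 was 3.02 ± 0.242 on day 0 and 6.5 ± 0.641 on day 4, and that of Atp5g1 to Atp5g2 was 0.551 ± 0.0729 and 1.16 ± 0.168, in WT. Among the 4 peripheral stalk genes (Atp5f1, Atp5h, Atp5j and Atp5o) 1 was higher on WT day 4 and 3 in KO. Of the small membrane subunits Atp5j2, Atp5k and Atp5l, none passed in WT and 1 was higher in KO.

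Most of the change had taken place by day 3. Between days 2 and 3, 34 of the 78 genes were higher and 1 lower in WT (all genes 24.9% and 24.2%), and 55 were higher and 0 lower in KO (all genes 23.6% and 20.3%). The 1 lower gene in WT was Ndufs8, with a difference of -0.23. Between days 3 and 4, 8 were higher and 3 lower in WT (all genes 19% and 19.8%), and 4 were higher and 6 lower in KO (all genes 18.2% and 17.6%). Sdha and Sdhc were among those still higher on day 4 than on day 3 in both genotypes, with differences of 0.30 and 0.16 in WT. The WT count between days 2 and 3 rested on its mice: it was 18 without mouse 480, 19 without mouse 529 and 47 without mouse 531.

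The mice differed most on day 0. The SD of log2(FPKM + 1) over the 3 samples had a median over the 78 genes of 0.233 in WT and 0.226 in KO on day 0, and of 0.0745 to 0.148 in the groups of days 2 to 4. Levels in the WT day 0 sample of mouse 531 were above the group mean for 72 of the 78 genes, by a median of 0.24, and those of KO mouse 532 were above it for 6 of 78, with a median of -0.24. Within mice, the median change of the 78 genes from day 0 to day 4 was 0.31 in mouse 480, 0.24 in mouse 529 and 0.06 in mouse 531. It was 0.47 in mouse 481, 0.27 in mouse 528 and 0.76 in mouse 532. In each genotype the mouse with the highest day 0 levels (531 in WT and 528 in KO, above the group mean by a median of 0.24 and 0.17) had the smallest median change. The day 0 level is subtracted in that change, so a high day 0 level lowers it by arithmetic. Mouse 531 was the only one with more genes below than above its day 0 level on day 3, with 33 up and 45 down. Without it, 6 genes in place of 14 were lower in WT on day 3. Without mouse 532, 35 genes in place of 49 were higher in KO on day 4. Complex II, with 4 genes, had the largest median change from day 0 to day 4 of the complexes in each mouse. It was 0.96 to 1.09 in the WT mice and 1.11 to 1.34 in the KO mice. Complex III was next in each mouse, at 0.47 to 0.78 in WT and 0.72 to 1.29 in KO. In mouse 532 the values of complexes III and II were close, at 1.29 and 1.34.

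**Figure D3:**
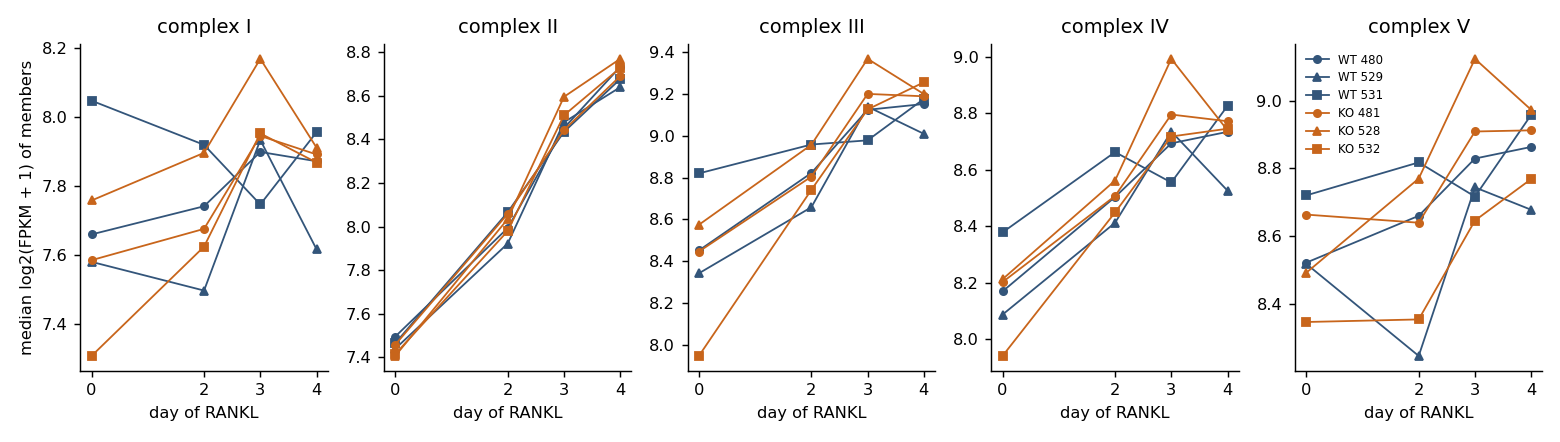
Median log2(FPKM + 1) over the genes of each complex by day of RANKL, 1 line per mouse (blue WT, orange KO); each panel has its own vertical range. The complex II median rises on each day in all 6 mice, while the complex I medians run from 7.31 to 8.05 on day 0 and overlap with those of day 4.

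Many subunits are short transcripts, and length moved with the difference from day 0 across the whole table. Lengths were medians over the GENCODE transcripts of a gene, short fragments included, and were found for 97.1% of the genes tested and for all 78. Among the 42 genes under 700 bases, 10 were higher and 11 lower on WT day 4, with a median of 0.15, against -0.53 for the other 688 genes of that length. Among the 16 of 700 to under 1000 bases, 4 were higher and 4 lower (median 0.13, other genes -0.52). Among the 20 of 1000 bases or more, 16 were higher and 0 lower (median 0.83, other genes 0.07). In each class most of the genes were above the median of the others, 34 of 42, 14 of 16 and 17 of 20. In KO the class medians were 0.42, 0.43 and 1.03, against -0.44, -0.39 and 0.07. All 15 lower calls in WT were among genes under 1000 bases, and of the other genes in the short classes 58.3% and 58.5% were called lower, against 39.3% of those of 1000 bases or more. RNA quality values were not in the sources used here, and the part of length in the division within complexes was not tested.

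**Figure D4:**
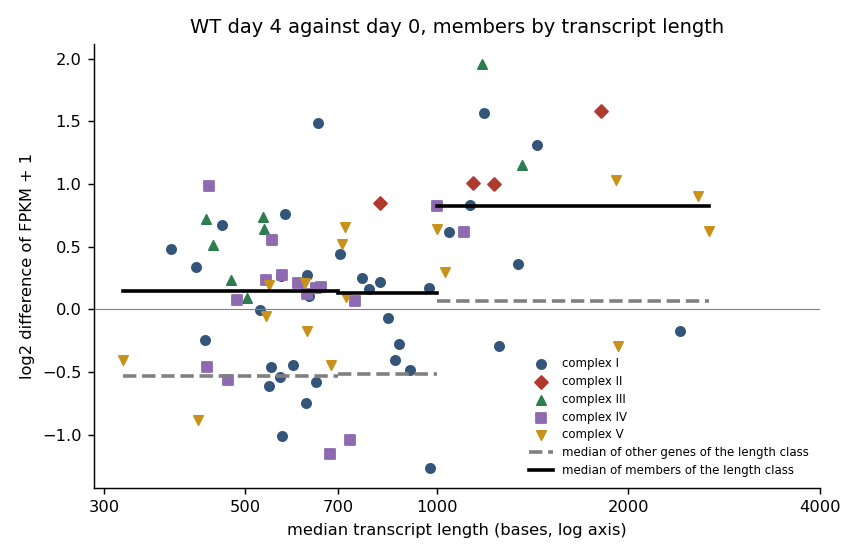
Log2 difference of FPKM + 1, WT day 4 against day 0, for each of the 78 genes against its median transcript length (log axis, bases), coloured by complex; black bars are medians of the 78 genes and dashed bars medians of the other genes in the classes under 700, 700 to under 1000 and 1000 bases or more. The black bars lie at 0.15, 0.13 and 0.83 and the dashed ones at -0.53, -0.52 and 0.07.

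Genes that act with the respiratory chain were read from lists chosen with earlier results of these data known. On WT day 4, 39.2% of all genes tested were higher and 42.7% lower, and with sum scaling 48.7% and 27.6%. On KO day 4 the shares were 38.6% and 40.8%. All 13 tricarboxylic acid cycle enzymes other than complex II were higher on day 4 in both genotypes, with a median of 1.38 in WT and 1.36 in KO. Of 17 genes of electron carriers and ATP exchange, 10 were higher and 3 lower in WT, and with sum scaling 13 and 3. Cycs, which encodes cytochrome c, went from 9.41 ± 1.67 to 26.1 ± 1.62 FPKM (1.39; limma, adjusted p = 8.13e-10), and the ADP/ATP carrier Slc25a5 from 251 ± 24 to 598 ± 35.7 FPKM. Adck3 (Coq8a), a kinase-like protein needed for coenzyme Q synthesis, went from 1.53 ± 0.601 to 170 ± 6.70 FPKM, and Coq5, a methyltransferase of that pathway, from 12.5 ± 1.63 to 42.1 ± 2.10 FPKM.

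Assembly factors moved in both directions, as did all genes tested (39.2% higher and 42.7% lower on WT day 4). On WT day 4, 7 of 12 complex I factors were higher and 4 lower, 2 of 4 for complex II were higher and 0 lower, and 2 of 5 for complex III were higher and 2 lower. For complex IV 10 of 19 were higher and 6 lower, and for complex V 2 of 3 were higher and 0 lower. With sum scaling the counts were 7 and 3, 4 and 0, 3 and 1, 12 and 3, and 3 and 0, in the order of the complexes. Cox15, needed to make heme a for complex IV, went from 9.01 ± 1.01 to 24.03 ± 1.90 FPKM. Of 17 genes of the outer membrane, protein import and folding, 9 were higher and 4 lower, and with sum scaling 12 and 1. The import receptor Tomm70a rose, with a difference of 1.37 (limma, adjusted p = 3.51e-10).

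Of 12 regulators of mitochondrial biogenesis, 6 were higher and 3 lower on WT day 4 on the deposited scale (all genes 39.2% and 42.7%). With sum scaling 9 were higher and 0 lower (all genes 48.7% and 27.6%). Ppargc1b had 0.873 to 1.22 FPKM in WT on day 0, 14.4 to 18.8 FPKM on day 2, 19.0 to 21.0 FPKM on day 3 and 13.9 to 15.9 FPKM on day 4. Every RANKL sample was above every day 0 sample, and all day 3 samples were above those of days 2 and 4. The day 4 difference was 2.99 in WT (limma, adjusted p = 2.33e-12) and 3.07 in KO (limma, adjusted p = 1.45e-12). Esrra, an orphan receptor that PGC-1 proteins coactivate, went from 27.4 ± 2.06 to 47.3 ± 2.58 FPKM (0.77; limma, adjusted p = 9.15e-06). Nrf1, nuclear respiratory factor 1, went from 11.3 ± 0.624 to 7.88 ± 0.302 FPKM (-0.46; limma, adjusted p = 0.000202), and its difference with sum scaling was -0.08 in WT (limma, adjusted p = 0.587) and -0.35 in KO (limma, adjusted p = 0.0203).

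Promoters of the genes were searched for letters that such factors are known to bind. The windows run from 250 bases before to 50 after each start and came from RefSeq (GRCm38.p6), which held 69 promoters for 64 of the 78 genes. The 78 genes were matched by current symbols, but the genes tested by the older symbols they were listed under. Renamed genes were thus left out of the comparison set of genes tested, which held 9327 promoters of 7302 genes. The letters GCGCNTGCG (NRF1) were in 24 of the 69 (34.8%), against 13.4% of the promoters of genes tested and 6.31% of all 32851 promoters. AAGATGGCG (YY1) was in 8 (11.6%), against 2.99% and 1.403%. CCGGAAGT (ETS factors such as GABP) was in 5 (7.25%), against 8.02% and 3.89%, and TCAAGGTCA (the receptor family of Esrra) was in 2 (2.90%), against 0.279% and 0.423%. Both strands were searched, and the NRF1 letters can overlap themselves on opposite strands. Among the 25 promoters of genes higher on WT day 4, 48% held at least 1 of these, 32% the NRF1 letters and 12% the ETS letters. Among the 12 of genes lower, the shares were 50%, 50% and 0%, and the difference was not tested. Below are 6 promoters, 5 of genes that rose on WT day 4 and that of Ndufs6, a complex I subunit called lower (-0.54) on the deposited scale. They show the NRF1 letters beside either outcome and both promoters with the TCAAGGTCA letters, each 5′ to 3′ on the gene's strand with the matches in capitals. A match is a description of the letters and not a measured binding site.
Sdha, chr13:74350191-74350490, minus strand, 3 NRF1 matches on the other strand: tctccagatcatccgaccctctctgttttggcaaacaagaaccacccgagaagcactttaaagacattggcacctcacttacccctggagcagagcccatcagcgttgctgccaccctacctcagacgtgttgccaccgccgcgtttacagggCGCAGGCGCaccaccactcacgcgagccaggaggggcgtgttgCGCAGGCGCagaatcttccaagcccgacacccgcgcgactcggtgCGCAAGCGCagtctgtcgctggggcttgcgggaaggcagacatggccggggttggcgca
Sdhd, chr9:50603800-50604099, minus strand, 1 NRF1 and 1 TCAAGGTCA match, both on the other strand: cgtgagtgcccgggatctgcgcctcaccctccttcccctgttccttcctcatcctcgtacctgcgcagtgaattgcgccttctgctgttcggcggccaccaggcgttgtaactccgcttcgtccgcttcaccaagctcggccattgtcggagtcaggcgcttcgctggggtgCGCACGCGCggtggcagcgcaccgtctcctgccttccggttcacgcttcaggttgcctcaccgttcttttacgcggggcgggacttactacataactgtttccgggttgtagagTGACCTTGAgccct
Atp5g3, chr2:73911277-73911576, minus strand, 1 TCAAGGTCA match on the other strand and 1 NRF1 match: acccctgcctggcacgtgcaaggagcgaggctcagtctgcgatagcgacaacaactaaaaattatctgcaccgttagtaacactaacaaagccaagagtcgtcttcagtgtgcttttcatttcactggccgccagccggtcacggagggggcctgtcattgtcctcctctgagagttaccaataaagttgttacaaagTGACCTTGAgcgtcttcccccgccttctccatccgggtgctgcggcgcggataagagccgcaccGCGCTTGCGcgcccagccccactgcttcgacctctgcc
Uqcrc1, chr9:108936398-108936697, plus strand, 3 NRF1 matches, the last pair overlapping: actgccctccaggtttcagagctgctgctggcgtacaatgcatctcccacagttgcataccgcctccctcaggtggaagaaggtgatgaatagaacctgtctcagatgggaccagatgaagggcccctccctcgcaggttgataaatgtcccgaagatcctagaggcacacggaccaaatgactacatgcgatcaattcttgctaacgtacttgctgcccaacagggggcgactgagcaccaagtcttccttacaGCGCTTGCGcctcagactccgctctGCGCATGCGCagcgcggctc
Cox8a, chr19:7217567-7217866, minus strand, 2 CCGGAAGT matches on the other strand: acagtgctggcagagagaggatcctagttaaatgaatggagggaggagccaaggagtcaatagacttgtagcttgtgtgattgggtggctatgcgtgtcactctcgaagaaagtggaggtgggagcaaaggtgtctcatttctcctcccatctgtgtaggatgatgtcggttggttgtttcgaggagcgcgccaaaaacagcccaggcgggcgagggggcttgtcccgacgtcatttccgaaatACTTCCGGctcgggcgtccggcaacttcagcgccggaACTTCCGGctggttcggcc
Ndufs6, chr13:73328433-73328732, minus strand, 1 NRF1 match and 1 AAGATGGCG match: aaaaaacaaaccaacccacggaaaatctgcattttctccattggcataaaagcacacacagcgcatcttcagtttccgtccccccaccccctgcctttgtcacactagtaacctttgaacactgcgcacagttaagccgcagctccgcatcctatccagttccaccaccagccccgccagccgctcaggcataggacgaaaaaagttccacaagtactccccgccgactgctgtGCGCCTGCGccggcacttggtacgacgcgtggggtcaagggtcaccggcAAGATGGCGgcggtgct

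None of the 78 genes differed between KO and WT on any day by limma's test, with the smallest adjusted p among them at 1 on day 0, 1 on day 2, 0.934 on day 3 and 1 on day 4. Over all genes, 0.0992% passed on day 0, 0.0298% on day 2, 0.0198% on day 3 and 0.0298% on day 4. At an unadjusted p under 0.05 there were 1, 0, 9 and 0 of the 78 genes, and 198, 102, 358 and 171 of all 10081. No difference between genotypes in the change from day 0 passed either. For day 2, day 3 and day 4 each, 0 of 78 passed (all genes 0.0397%, 0.0694% and 0.0496%). At an unadjusted limma p under 0.05 there were 1, 2 and 1 of the 78. With 3 mice per group, this does not show that the changes were equal.

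The signs of the differences were nevertheless lopsided. On day 0, 74 of the 78 genes had a lower mean in KO, with a median difference of -0.19, against -0.01 for all genes tested. On day 3, 77 of 78 had a higher mean in KO, with a median of 0.14 against -0.00 for all genes. The medians on days 2 and 4 were 0.02 and 0.06. Length moved with these differences too: over 9785 genes, Spearman's rho of length with the KO minus WT difference was 0.34 on day 0 and -0.39 on day 3, and over the 78 genes it was 0.42 and -0.25, values across genes that share the same libraries. Among genes under 700 bases, the day 0 median was -0.21 for the 42 members and -0.08 for the 688 others, and the day 3 medians were 0.14 and 0.03. Among those of 1000 bases or more, the day 0 medians were -0.11 and 0.01, and the day 3 medians 0.11 and -0.01. The part of length in the difference between genotypes was not tested. With sum scaling the day 0 median was -0.05, against 0.10 for all genes, and the day 3 median was 0.09, against -0.04. The change from day 0 was larger in KO for 73 of 78 genes on day 2, all 78 on day 3 and 77 on day 4, values that share the day 0 samples. These counts are not tests, since the genes of one sample rise and fall together. On day 0 the sample of WT mouse 531 was high and that of KO mouse 532 low, as given above. On day 3 the sample of KO mouse 528 was above its group mean for 75 of 78 genes, by a median of 0.14. That of WT mouse 531 was above its group mean for 10 of 78, with a median of -0.07.

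Day 3 was the day with the clearest separation of samples. All 3 KO samples were above all 3 WT samples for 15 of the 78 genes (19.2%), against 3.96% of all genes tested, and with sum scaling for 11 (14.1%, against 1.90% of all genes). None of the 78 had all KO samples below all WT samples on day 3, against 3.51% of all genes. On day 0 this was the case for 0 of the 78, against 3.65% of all genes, and on days 2 and 4 the KO samples were above for 2 and 0 of them, against 1.64% and 2.34% of all genes, so the day 2 count was near the background. The 15 genes came from every complex: Ndufa10, Ndufa4, Ndufc2, Ndufs1, Ndufs8, Ndufv2, Sdha, Uqcrb, Uqcrc1, Uqcrc2, Uqcrh, Cox4nb, Cox6a2, Cox7a2l and Atp5c1. Uqcrc2, with day 3 WT values given above, had 349, 371 and 360 FPKM in the KO mice (0.11; SE 0.0495; limma, unadjusted p = 0.0335, adjusted p = 0.934). For Cox7a2l the WT mice had 236, 248 and 228 FPKM, while the KO mice had 253, 295 and 265 FPKM (0.19; SE 0.0746; limma, unadjusted p = 0.0202, adjusted p = 0.934). For Uqcrc2 the gap was small next to its change with RANKL. Over the 78 genes, the day 3 median difference between genotypes was 0.14. Their median change from day 0 to day 3 was 0.19 in WT and 0.58 in KO. The sum of the 13 osteoclast markers was also higher in KO on that day, at 24710 to 26688 FPKM in WT and 27037 to 29385 FPKM in KO. Of the 13 markers 0 passed, with a median log2 difference of 0.10. Their part in the day 3 values was not tested.

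**Figure D5:**
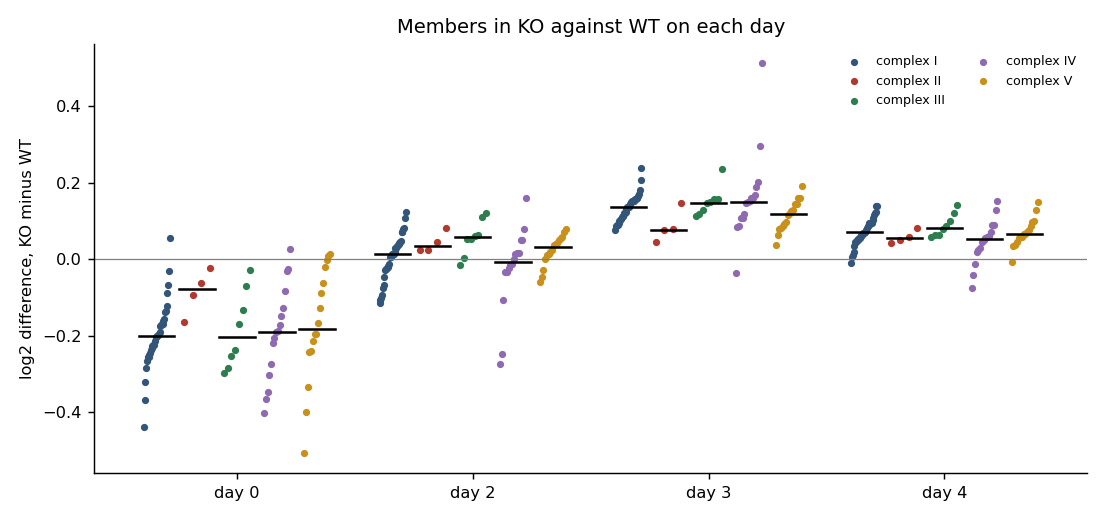
Log2 difference of FPKM + 1 between KO and WT for each of the 78 genes on each day, coloured by complex; bars mark the median of each complex. Most points lie below 0 on day 0 (74 of 78) and above 0 on day 3 (77 of 78), and none passed limma's test.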

How the data were processed

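RNA-seq was measured in 24 samples. The deposited values were FPKM in 1 table; per the submitters' processing notes the authors used HISAT2 2.0.5, Cufflinks 2.2.1 and Cuffdiff with the build mm10, and the roles of the tools are not given there. Counts and depth were not given, so precision was judged from the 3 mice per group. How the 10721 genes of the table were selected is not given in the sources used here.

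From these values log2(FPKM + 1) was computed for genes whose mean reached 1 FPKM in some group. limma 3.58.1 (R 4.3.3) was fitted to all 24 samples with 1 mean per group, array weights per day (0.355, 1.20, 1.70 and 1.38 for days 0, 2, 3 and 4), a trended prior and Benjamini-Hochberg adjustment over 10081 genes. The procedure was run on simulated data whose errors were drawn independently for each gene and sample. No mouse effect was simulated, so that run does not cover genes or samples that move together. Same-numbered samples are the same mouse within a genotype, per the labels. Deviations of a mouse's samples from their group means had median correlations of 0.0896 to 0.159 in WT and 0.124 to 0.331 in KO mice.

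Alternatives were equal weights, a pseudocount of 0.1, median scaling, fits of only the groups compared, filters at 0 and 5 FPKM, the mouse as a block and leaving out each mouse. Sum scaling was added after the data were seen. The members, lists and tests were chosen with earlier results of these data known. Named with values were, per complex, the most abundant gene, the 3 largest and 2 smallest WT day 4 differences, and isoform sets. From each other list the 2 genes with the smallest adjusted p, and Ppargc1b, Esrra and Cycs, could be named. Ndufs6, Atp5c1, Cox4nb, Slc25a5 and Nrf1 were named outside this rule after their values were seen. Transcript lengths came from GENCODE vM21 and promoters from RefSeq.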

Additional observations from a re-analysis of the deposited data

Results flagged for a closer look

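In 3 of the 78 genes, 1 on each day (1.28%), every WT mouse moved one way from day 0 and every KO mouse the opposite way. Over all 10081 genes tested the same pattern was seen in 33 genes (0.327%) on day 2, 29 (0.288%) on day 3 and 19 (0.188%) on day 4. For Cox7a2l on day 2 the log2 change ranged from -0.57 to -0.09 in WT mice and from 0.06 to 0.33 in KO mice, and the KO change minus the WT change was 0.45 (limma interaction, adjusted p = 1). For Atp5k, a small membrane subunit of ATP synthase, on day 3 the ranges were -0.50 to -0.04 and 0.10 to 0.50, with a difference of 0.43 (limma interaction, adjusted p = 0.906). For Ndufb2, an accessory subunit of complex I, on day 4 they were -0.27 to -0.07 and 0.14 to 0.35, with a difference of 0.42 (limma interaction, adjusted p = 0.999). None of the 3 differences passed the test, and each rests on the day 0 samples, where mice differed most.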

How the results depend on the processing

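Across the alternatives, 294 recomputed counts of calls stayed within 1.5 times the reported count and 28 did not. For single named genes 442 recomputed values kept direction and side of the threshold, 8 passed it in addition, 9 lost it and 1 turned in sign. Sum scaling gave higher and lower counts of 47 and 5 (WT day 2 against day 0), 56 and 5 (WT day 3), 56 and 3 (WT day 4) and 55 and 3 (KO day 2), and 17 (WT) and 21 (KO) passing between days 3 and 4. With the mouse as replicate block, lower counts were 23 for WT day 2 and 9 for KO day 4, and the block moved no other count of calls beyond 1.5 times. Equal weights gave 7 lower for KO day 3 and 7 for KO day 4, 19 passing for WT between days 2 and 3, and 3 in WT and 3 in KO between days 3 and 4. A filter at 5 FPKM gave 2 lower for KO day 3. Fitting only the groups compared gave 7 lower for KO day 4 and 6 passing for WT between days 3 and 4. Leaving out 1 mouse gave 9 to 17 lower for WT day 2 and 6 to 15 for WT day 3, 18 to 47 passing for WT between days 2 and 3, and 5 to 11 in WT and 2 to 11 in KO between days 3 and 4. Uqcrq on WT day 4 ranged from -0.10 (without WT mouse 480; limma, adjusted p = 0.706) to 0.21 (without WT mouse 531), and was 0.09 with all mice. No call between KO and WT or for an interaction appeared under any of these settings. The cause of these shifts was not tested. Depth was unknown, so counting error could not be set apart from the spread between mice.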
